A study of Mus musculus with 8 samples.

Results

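Alpha-fetoprotein and the other genes described here are 10 markers of fetal liver and of liver tumours: Afp, Igf2, H19, Gpc3, Dlk1, Igf2bp3, Ly6d, Golm1, Cd44 and Tspan1. They were listed by name, but earlier results of these data were known when the list was made. On the arrays 19751 genes could be named. Their probes were matched through the RefSeq accession that the scanner files give for each probe. A probe was found in this way for 9 of the 10 markers, H19 being the exception, and H19 therefore has no value here. The probes of Igf2 and Igf2bp3 were too dim to test, so that 7 of the 10 markers were tested.

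The series asks how deletion of Keap1 acts on cholangiocarcinoma, cancer of the bile duct, in a mouse model. RNA of whole livers from 8 mice was measured, 1 array per mouse, in 4 groups of 2 mice that combine the genotypes AKP and AKP::Keap1 with each sex. All 8 mice carried liver-specific p53R172H, a mutant form of the tumour suppressor p53, together with a liver-specific activated oncogene. The AKP::Keap1 mice also lacked Keap1, which marks the transcription factor Nrf2 for degradation. The ages of the mice and the Cre line that acts in the liver are not given in the sources used here. Because whole liver was used, more cells of a type cannot be told apart from more RNA per cell. Per array, 65.7% to 70.7% of spots were well above background, no spot was saturated, and the arrays of a group had correlations of 0.9895 to 0.9919 over all genes. Keap1 itself was lower in AKP::Keap1 livers, with a log2 difference of -2.85 ± 0.11 (SE, adjusted p = 0.00018), although the files do not say whether its probe lies in the deleted part.

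Fetal hepatocytes make many proteins that the adult organ nearly ceases to make after birth. Afp is the main serum protein of the fetus, and Igf2, H19 and Dlk1 are imprinted genes, expressed from the copy of a single parent. Several of these genes are known to be expressed again in liver tumours, and Afp and Gpc3 are used as markers of hepatocellular carcinoma. Others on the list are surface or Golgi proteins of epithelial and progenitor cells.

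A level below is the log2 of the processed signal minus the 75th percentile of its array, so that a probe at 0 is as bright as that percentile. Levels of different genes are not compared, because each probe binds its target with its own strength. A difference is AKP::Keap1 minus AKP on this log2 scale, with the standard error (SE) of the limma fit, and a gene is called at an adjusted p below 0.05. With 2 mice per group the number of arrays limits the precision. Each slide held 1 group, so that slide and group cannot be told apart where single groups are compared. Over both sexes, too, no slide held both genotypes: AKP arrays lay on slides 1 and 3 and AKP::Keap1 arrays on slides 2 and 4.

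**Figure D1:**
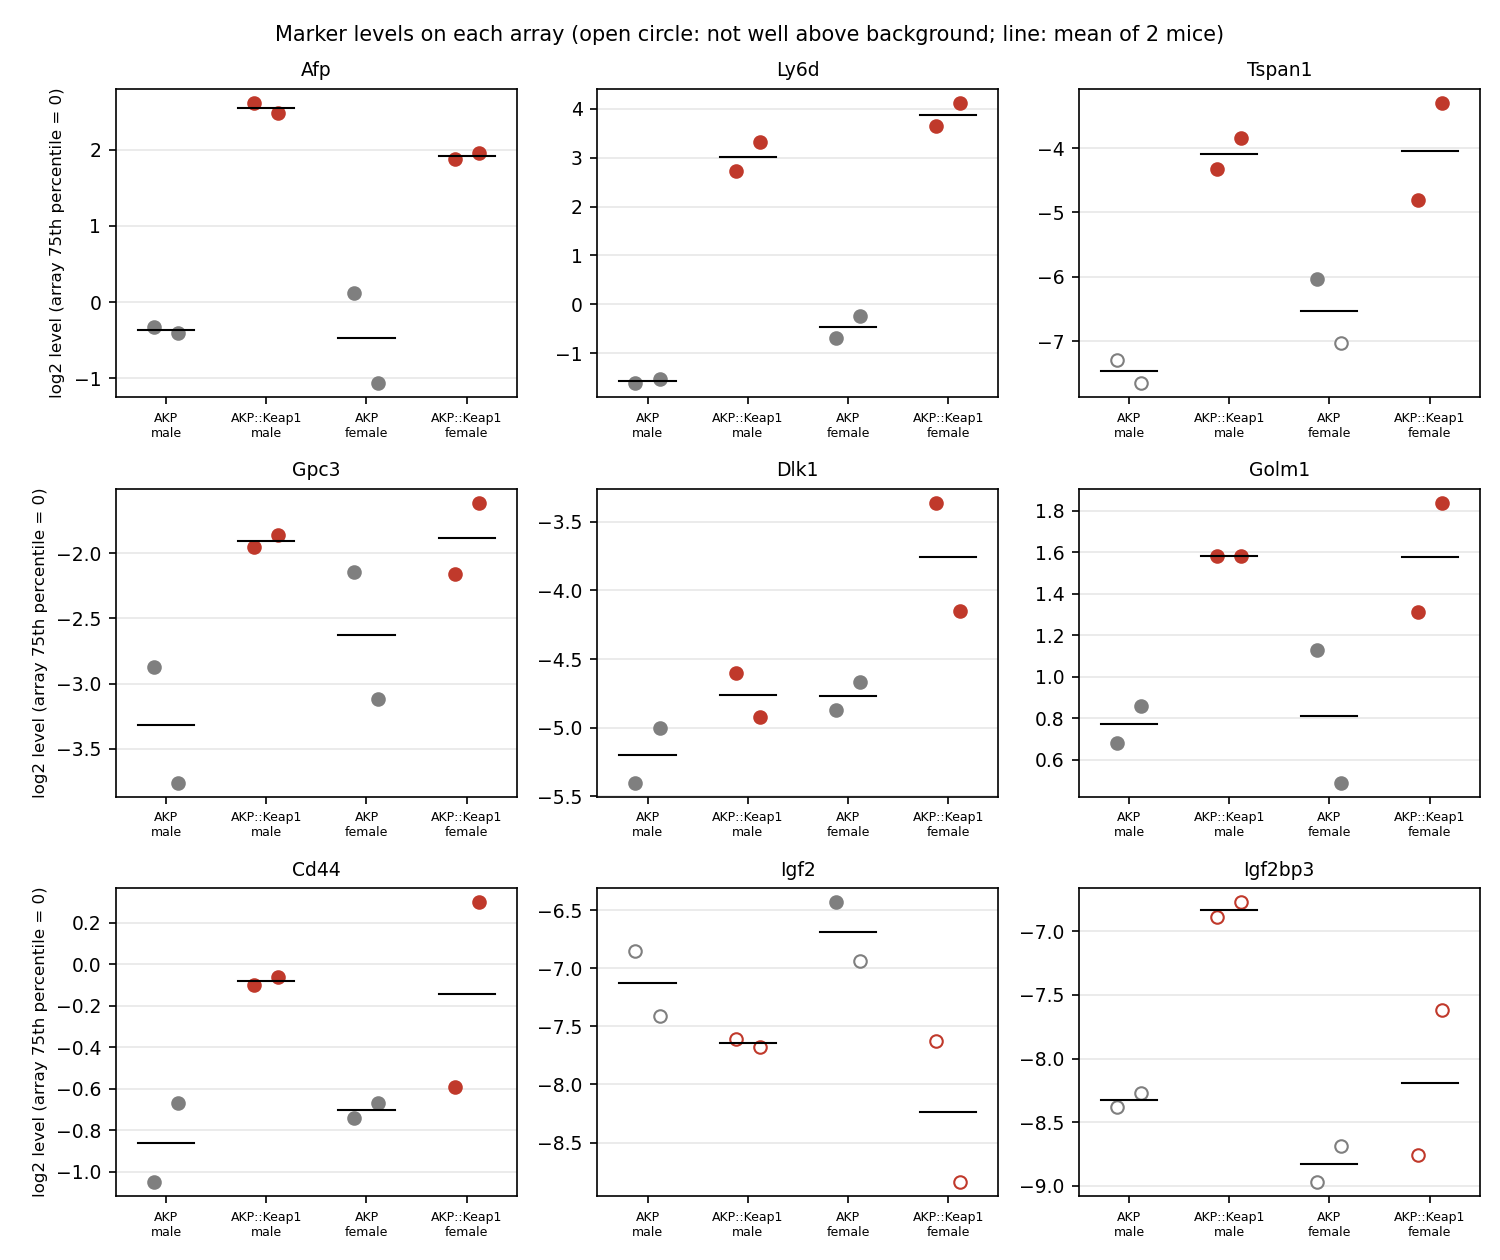
Level of 9 markers on each of the 8 arrays (log2 of the processed signal, with the array's 75th percentile at 0; each panel has its own axis). Each point is 1 mouse, grey for AKP and red for AKP::Keap1, lines are means of 2 mice, and open circles are signals not well above background. For Afp, Ly6d, Tspan1, Golm1 and Cd44 all 4 AKP::Keap1 points lie above all 4 AKP points, whereas no Igf2bp3 point and 1 Igf2 point was above background.

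All 7 tested markers were higher in AKP::Keap1 livers when the sexes were averaged. Ly6d rose by 4.46 ± 0.19 and Afp by 2.65 ± 0.25. Tspan1 had a fitted rise of 2.93 ± 0.38, whose size is uncertain because 1 of 4 AKP arrays was above background. Gpc3 (1.08 ± 0.30), Golm1 (0.79 ± 0.18), Dlk1 (0.73 ± 0.21) and Cd44 (0.67 ± 0.21) rose by less. In the same comparison 39.1% of the 15834 genes tested were called, 21.8% as higher (3456 genes) and 17.2% as lower (2729). This split moved with the scaling, to 2372 higher and 6372 lower after a shift to the array median, 2176 and 3954 after normexp correction and 5703 and 646 with the deposited values left unscaled. The median of all genes moved to -0.25, -0.13 and 0.31. Normexp correction also moved single dim genes by far more than this median, Dlk1 to 0.066 and Tspan1 to 0.62. The arrays of the genotypes did not overlap for 5 of the 7 markers, whereas 15.5% of all genes had all 4 AKP::Keap1 arrays above all 4 AKP arrays and 11.5% had them below. The median of the 7 was 1.08, beside -0.00092 over all genes tested. Tspan1 was above background on few AKP arrays and could be tested because of its signal in AKP::Keap1 livers, so the count of 7 is a description of the markers that could be tested and not of all 10.

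Afp encodes alpha-fetoprotein, the fetal counterpart of albumin. RefSeq places the start of the gene on chromosome 5 of build GRCm38.p6, next to the other genes of the albumin family. The 250 bases before that start, on the plus strand at chr5:90490464-90490713, are shown because regulation of Afp is known to run through this region. Capitals mark the letters GTTAAT, part of the recognition sequence of the hepatocyte factor Hnf1, found 105 to 100 bases before the start.
Afp promoter: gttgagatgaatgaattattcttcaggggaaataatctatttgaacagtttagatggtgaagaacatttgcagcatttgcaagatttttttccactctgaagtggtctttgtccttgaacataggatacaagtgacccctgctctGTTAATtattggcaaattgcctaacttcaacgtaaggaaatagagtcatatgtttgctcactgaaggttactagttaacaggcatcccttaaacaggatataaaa
When both strands were searched, GTTAAT was found in 6.43% of 32851 mouse promoters of this length, and the match is a description of the letters only.

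Afp was at -0.33 and -0.41 in the AKP males and at 2.61 and 2.48 in the AKP::Keap1 males. Among females it was at 0.12 and -1.06 in AKP livers and at 1.87 and 1.95 in AKP::Keap1 livers. All 4 AKP::Keap1 livers were thus above every AKP liver, and the AKP females differed most among themselves. The group means were -0.37 ± 0.05 (SD, n = 2) and 2.55 ± 0.09 in males, and -0.47 ± 0.83 and 1.91 ± 0.05 in females. The rise over both sexes was 6.27-fold (adjusted p = 0.0014, limma, 95% interval of the log2 difference 2.04 to 3.25). It was 2.92 ± 0.35 in males (adjusted p = 0.005) and 2.38 ± 0.35 in females (adjusted p = 0.0096). In a fit to the 4 female arrays alone the female difference was no longer called (adjusted p = 0.051).

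None of the transcription factors known to act on Afp was called higher. Of 13 listed regulators, all tested with limma, 5 fell, 0 were higher also at an unadjusted p below 0.05, and the median was -0.48, although 1 was called higher with the deposited values left unscaled. Over all genes 17.2% were called lower and 21.8% higher. Zhx2, a repressor that silences Afp after birth, fell by 0.81 ± 0.10 (a difference of -0.81, adjusted p = 0.0027). It was at -5.01 and -4.92 in AKP males and at -5.14 and -5.30 in AKP::Keap1 males, and the groups lay close together. In females Zhx2 was at -3.71 and -3.97 in AKP livers and at -5.22 and -5.17 in AKP::Keap1 livers. The difference was -0.26 ± 0.14 in males (adjusted p = 0.20) and -1.36 ± 0.14 in females (adjusted p = 0.0042), while the test of the difference between the sexes gave -1.10 ± 0.20 (adjusted p = 0.059). Nr5a2 (-0.74 ± 0.10) and Foxa3 (-1.54 ± 0.28), nuclear activators of hepatocyte genes, also fell.

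Afp stands in the genome beside Alb, Afm and Gc, which encode the other serum proteins of the albumin family. None of these 3 neighbours was higher in the limma fit, also at an unadjusted p below 0.05. Afm, or afamin, fell (-0.72 ± 0.14, adjusted p = 0.011), a call that was lost with the deposited values left unscaled (-0.41, adjusted p = 0.084). Albumin itself, Alb, had a difference of -0.31 ± 0.13 (adjusted p = 0.10) and Gc, the vitamin D binding protein, -0.19 ± 0.14 (adjusted p = 0.30). Gc turned to 0.075 after quantile normalization and to 0.12 with unscaled values, neither called.

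Igf2 encodes the fetal insulin-like growth factor, and Igf2bp3 an RNA-binding protein of fetal tissue that binds Igf2 mRNA. The Igf2 probe was well above background on 1 of 8 arrays, that of AKP female 1, at -6.43. On the other arrays its signal lay between -8.84 and -6.85, and no AKP::Keap1 liver had a signal above background. The Igf2bp3 probe was well above background on 0 of 8 arrays, with signals from -8.97 to -6.77. Of these, the highest were those of the 2 AKP::Keap1 males, at -6.89 and -6.77, and signals at this brightness give no measured difference. A rise of Igf2 or Igf2bp3 was thus not detectable with these probes, which does not show that the RNAs were absent.

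Of 17 other genes listed for the insulin-like growth factor axis, 15 were tested, 3 rose and 6 fell, with a median of -0.35 against -0.00092 over all genes. Over all genes 21.8% were called higher, a share near that of this list, and 17.2% lower. Pappa, a protease that frees the growth factors from their binding proteins, rose by 2.21 ± 0.22 (adjusted p = 0.0015) and was above background on 2 of 4 AKP arrays. Igfbp7 (1.13 ± 0.14), a binding protein of vessels and stroma, and the receptor Igf1r (0.79 ± 0.15) rose as well. The binding protein Igfbp4 (-0.88 ± 0.10), the insulin receptor Insr (-0.87 ± 0.13) and its adaptor Irs2 (-1.47 ± 0.22) fell.

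Dlk1 encodes a membrane protein related to the Notch ligands that marks fetal hepatoblasts and is imprinted. Its start lies on chromosome 12, and the 250 bases before it on the plus strand (RefSeq, GRCm38.p6) span chr12:109452573-109452822. They are shown because they hold 2 copies of TGTTTAC, the core recognised by the Foxa factors of liver endoderm, in capitals 87 to 81 and 67 to 61 bases before the start.
Dlk1 promoter: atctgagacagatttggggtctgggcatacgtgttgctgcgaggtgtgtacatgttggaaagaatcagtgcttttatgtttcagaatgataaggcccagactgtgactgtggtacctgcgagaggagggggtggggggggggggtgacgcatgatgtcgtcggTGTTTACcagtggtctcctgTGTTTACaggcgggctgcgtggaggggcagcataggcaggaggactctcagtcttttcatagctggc
The letters TGTTTAC were found on either strand in 3.17% of the promoters searched.

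Dlk1 was at -5.40 and -5.00 in AKP males and at -4.60 and -4.92 in AKP::Keap1 males. Among females it was at -4.87 and -4.67 in AKP livers and at -3.36 and -4.15 in AKP::Keap1 livers. The AKP::Keap1 females were the highest, and AKP::Keap1 male 2 lay below both AKP females, so that the genotypes overlapped. The rise over both sexes was 1.66-fold (0.73 ± 0.21, adjusted p = 0.035, 95% interval 0.23 to 1.23). Neither sex alone gave a call, with 0.45 ± 0.29 in males (adjusted p = 0.28) and 1.01 ± 0.29 in females (adjusted p = 0.056). The call was lost in 12 of 18 alternatives, among them the replicate block (adjusted p = 0.053) and a normexp background correction, under which the difference was 0.066 (adjusted p = 0.74) and the male difference turned to -0.33. It was also lost without any 1 of the arrays other than AKP::Keap1 female 2 (adjusted p from 0.051 without AKP male 2 to 0.0998 without AKP::Keap1 male 1). A second Dlk1 probe was above background on 0 of 8 arrays.

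Among 24 other imprinted genes, 20 were tested, 6 rose and none was lower in the limma fit, also at an unadjusted p below 0.05, with a median of 0.12. Over all genes tested 21.8% were called higher, a share near that of this list, and 17.2% lower. After a shift to the array median 4 were called higher and 4 lower, and after quantile normalization 3 were called higher. Plagl1, a zinc finger factor of an imprinted gene network, rose by 1.14 ± 0.13 (adjusted p = 0.0021). Phlda2, known for restraining placental growth, had a fitted rise of 2.86 ± 0.52 (adjusted p = 0.0084) with 3 of 4 AKP arrays above background. Ascl2, a factor of intestinal stem cells and placenta, rose by 0.93 ± 0.22 (adjusted p = 0.019) but lost its call in 5 of 18 alternatives. Of 7 listed Notch ligands and relatives of Dlk1, 5 were tested and 4 rose, with a median of 1.13, beside 21.8% of all genes called higher. After quantile normalization 2 rose and 1 fell. The 4 that rose before it were Jag1 (1.16 ± 0.24), Dll4 (1.13 ± 0.33), Dll3 (0.54 ± 0.10) and Jag2. Jag2 was above background on no AKP array and was at least 2.15-fold higher (adjusted p = 0.0017). It could be tested through its signal in AKP::Keap1 livers alone, so its call and its place in the count are a description. Dll4 lost its call in 10 of 18 alternatives, and after normexp correction Dll3 turned to -0.093 and Jag2 was no longer called (adjusted p = 0.78). Dll1 had -0.41 ± 0.15 (adjusted p = 0.067). In males 3 of the 5 rose and 0 fell, whereas in females 1 rose, Jag2, and 1 fell, Dll1 (-1.02 ± 0.21, adjusted p = 0.021). The Dll1 difference between the sexes was not called (-1.22 ± 0.29, adjusted p = 0.09).

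Gpc3 encodes glypican 3, a heparan sulphate proteoglycan held on the cell surface by a lipid anchor. It was at -2.87 and -3.76 in AKP males and at -1.95 and -1.86 in AKP::Keap1 males. Among females it was at -2.14 and -3.12 in AKP livers and at -2.16 and -1.61 in AKP::Keap1 livers. The male groups were apart, whereas AKP female 1 lay just above AKP::Keap1 female 1. The rise over both sexes was 2.11-fold (1.08 ± 0.30, adjusted p = 0.032, 95% interval 0.36 to 1.80). It was 1.41 ± 0.42 in males (adjusted p = 0.051) and 0.75 ± 0.42 in females (adjusted p = 0.24), so neither sex alone was called. The call over both sexes was lost in 7 of 18 alternatives, among them an additive model with slide as a random block (adjusted p = 0.076). It was lost without AKP male 2 (adjusted p = 0.079), AKP::Keap1 male 1 (0.074), AKP::Keap1 male 2 (0.086), AKP female 2 (0.076) or AKP::Keap1 female 2 (0.090).

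None of the other glypicans was called higher by limma, and 1 was at an unadjusted p below 0.05. Of 5 listed and tested, Gpc4 (-0.40 ± 0.10, adjusted p = 0.025) and Gpc6 (-0.79 ± 0.20, adjusted p = 0.026) fell, and the median of the 5 was 0.37. Both falls were lost with the deposited values left unscaled, where 2 glypicans were called higher and none lower, and 1 was called higher after quantile normalization. Gpc1 (0.48 ± 0.16, adjusted p = 0.053), Gpc5 (0.37 ± 0.18, adjusted p = 0.15) and Gpc2 (0.39 ± 0.33, adjusted p = 0.38) were not called.

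**Figure D2:**
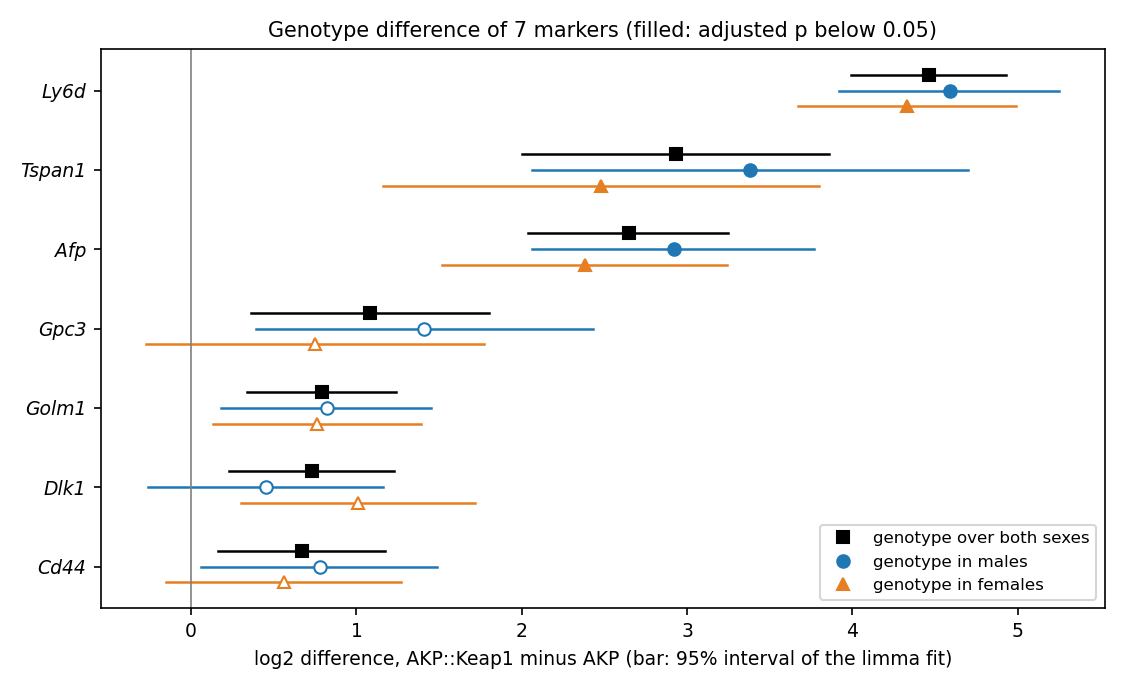
Difference between AKP::Keap1 and AKP livers (log2) for the 7 tested markers, over both sexes (black squares), in males (blue circles) and in females (orange triangles). Bars are 95% intervals of the limma fit and filled symbols have an adjusted p below 0.05. Ly6d, Tspan1 and Afp are filled throughout, whereas Gpc3, Golm1, Dlk1 and Cd44 are filled only over both sexes.

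Ly6d is a small lipid-anchored surface protein of the Ly6 family, known from squamous epithelium and lymphoid progenitors. It was at -1.61 and -1.52 in AKP males and at 2.73 and 3.32 in AKP::Keap1 males. In females Ly6d was at -0.68 and -0.23 in AKP livers and at 3.64 and 4.12 in AKP::Keap1 livers. The gap between the genotypes was wider than the spread within any group. As processed signals, the 4 AKP livers lay between 319 and 881 and the 4 AKP::Keap1 livers between 10100 and 22000. The rise was 22-fold (4.46 ± 0.19, adjusted p = 0.00021, 95% interval 3.99 to 4.93), and 0.29% of the genes tested had a larger one. It was 4.59 ± 0.27 in males (adjusted p = 0.00084) and 4.33 ± 0.27 in females (adjusted p = 0.0015). Ly6d kept its call in 18 of 18 alternatives, with differences from 4.21 to 4.77.

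Of 30 listed genes of the Ly6 family 24 were tested, 13 rose and 2 fell, with a median of 0.70. Over all genes tested 21.8% were called higher and 17.2% lower. Ly6g6c rose by 0.82 ± 0.08 (adjusted p = 0.0016) and Lypd2 by 1.09 ± 0.12 (adjusted p = 0.0021). Lypd3, a surface protein of keratinocytes, was above background on no AKP array and was at least 1.54-fold higher (adjusted p = 0.0022), but turned to -0.13 after normexp correction. Lypd3 could be tested through its signal in AKP::Keap1 livers alone, so its call and its place in the count are a description. Cd59a, which protects cells from complement, fell (-1.22 ± 0.21, adjusted p = 0.0069). Gpihbp1, which holds lipoprotein lipase on capillary walls, had -0.33 ± 0.08 (adjusted p = 0.025) and lost its call in 8 of 18 alternatives. Markers of squamous epithelium, a tissue known for Ly6d, had a mean level of -4.08 to -3.75 in AKP and -3.66 to -3.28 in AKP::Keap1 livers, 2 of 5 tested rose, and Ivl was above background on 0 of 8 arrays. Markers of B and plasma cells had 1 rise among 6 tested, with means from -3.30 to -1.77 in AKP and from -2.93 to -1.77 in AKP::Keap1 livers. The part of these cells in the rise of Ly6d was not tested.

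Tspan1 encodes a tetraspanin, a protein with 4 membrane spans, that is found in secretory epithelium. Its start is on the minus strand of chromosome 4, and the 250 bases before it (RefSeq, GRCm38.p6) span chr4:116167599-116167848. They are shown because, among the 11 promoters given for 8 of the markers, this was the one with the core of the antioxidant response element, TGACNNNGC, through which Nrf2 is known to act. The match TGACACTGC, in capitals, lies 214 to 206 bases before the start.
Tspan1 promoter: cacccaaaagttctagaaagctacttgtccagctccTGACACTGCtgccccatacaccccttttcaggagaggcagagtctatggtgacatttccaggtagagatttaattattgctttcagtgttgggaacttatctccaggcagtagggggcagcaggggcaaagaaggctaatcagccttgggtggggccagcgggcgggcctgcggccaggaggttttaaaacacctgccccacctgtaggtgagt
The core was found on either strand in 10.2% of all promoters searched. Promoters of Gpc3, Golm1, Cd44 and Igf2bp3 held none of the motifs searched, and 3 of the 4 Igf2 promoters held GGAATG, the Tead core, which 12.6% of all promoters have. No promoter of Ly6d or H19 was used here, and the absence of letters from these windows says nothing about the factors.

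Tspan1 was not well above background in either AKP male, at -7.29 and -7.65, and was measured at -4.32 and -3.85 in AKP::Keap1 males. Among females it was above background in AKP female 1, at -6.04, but not in AKP female 2, at -7.02, and it was measured at -4.80 and -3.30 in AKP::Keap1 females. All 4 AKP::Keap1 livers had a measured signal and lay above every AKP liver. In males Tspan1 was at least 5.53-fold higher in AKP::Keap1 livers. This bound sets the mean of the brighter group against the lowest signal well above background on each dimmer array. The male adjusted p of 0.011 is that of the limma fit and not of the bound. Neither AKP male was above background, so the male call is a description. In females the fitted difference was 2.48 ± 0.54 (adjusted p = 0.026). Over both sexes it was 2.93 ± 0.38 (adjusted p = 0.0032, 95% interval 2.0 to 3.86), of which the AKP side rests on 1 array above background. After normexp correction, which raises dim signals, it was 0.62 and still called, whereas the male difference was 0.43 and not called (adjusted p = 0.17). The male call was also lost without AKP male 2 (adjusted p = 0.053) or AKP::Keap1 male 2 (0.063), and the female call without AKP female 2 (0.12) or AKP::Keap1 female 2 (0.078) and in a fit to the female arrays alone (0.082).

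Tetraspanins as a family were more often higher than lower. Of 26 listed genes 24 were tested, 12 rose and 2 fell, with a median of 0.42, beside 21.8% of all genes called higher and 17.2% lower. Tspan8, which is also a cholangiocyte marker, rose by 5.65 ± 0.37 (adjusted p = 0.00056), Tspan17 by 1.74 ± 0.11 (adjusted p = 0.00045) and Cd9 by 1.08 ± 0.09 (adjusted p = 0.001). Tspan33, known from B cells, red cell precursors and kidney, fell (-1.03 ± 0.16, adjusted p = 0.0049). Tspan12, a partner in Wnt signalling of vessels, had -0.31 ± 0.10 (adjusted p = 0.044) and lost its call in 11 of 18 alternatives. After a shift to the array median 9 tetraspanins were called higher and 5 lower.

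Golm1 encodes a transmembrane protein of the Golgi that is cleaved and secreted, and it is a known serum marker of liver disease. It was at 0.68 and 0.86 in AKP males and at 1.58 in both AKP::Keap1 males. Among females it was at 1.13 and 0.49 in AKP livers and at 1.31 and 1.84 in AKP::Keap1 livers. The genotypes did not overlap, but AKP female 1 and AKP::Keap1 female 1 were close. The rise was 1.73-fold (0.79 ± 0.18, adjusted p = 0.019, 95% interval 0.34 to 1.24). It was 0.82 ± 0.26 in males (adjusted p = 0.061) and 0.76 ± 0.26 in females (adjusted p = 0.086). The call over both sexes was lost without AKP male 1 (adjusted p = 0.058), AKP::Keap1 male 1 (adjusted p = 0.053) or AKP::Keap1 male 2 (adjusted p = 0.057). Among 6 tested relatives and Golgi proteins none was called higher by limma, 1 was at an unadjusted p below 0.05, and the stacking protein Gorasp2 fell (-0.56 ± 0.08, adjusted p = 0.0043), whereas with unscaled values 2 were called higher and none lower.

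Cd44 is the hyaluronan receptor of the cell surface, present on leukocytes and on many progenitor and tumour cells. It was at -1.05 and -0.67 in AKP males and at -0.10 and -0.06 in AKP::Keap1 males. In females Cd44 was at -0.74 and -0.67 in AKP livers and at -0.59 and 0.30 in AKP::Keap1 livers. The genotypes did not overlap, but AKP::Keap1 female 1 lay close to the AKP livers. The rise was 1.59-fold (0.67 ± 0.21, adjusted p = 0.046, 95% interval 0.16 to 1.17). It was 0.78 ± 0.29 in males (adjusted p = 0.092) and 0.56 ± 0.29 in females (adjusted p = 0.22). The call was lost in 11 of 18 alternatives, with an adjusted p of up to 0.14 after a shift to the array median. It was lost without any 1 of the arrays other than AKP::Keap1 female 1 (adjusted p from 0.054 without AKP::Keap1 female 2, where the difference was 0.44, to 0.13 without AKP male 1).

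The files hold 4 Cd44 probes, and they differ in how far the genotypes lie apart. The values above are those of the brightest probe. Of the others, 1 was above background on all 8 arrays and had a difference of 0.30 ± 0.19 over both sexes, 0.54 ± 0.28 in males and 0.07 ± 0.28 in females. Another was above background on all 4 AKP::Keap1 arrays and on no AKP array, and was at least 1.58-fold higher over both sexes, 1.03-fold in males and 2.44-fold in females. That probe passed the filter through its signal in AKP::Keap1 livers alone, so its values are a description. The last was above background on 1 array, that of AKP::Keap1 male 1. Of the 3 other probes none has an adjusted p of its own. Cd44 RNA is known to be spliced into many forms, and which exons these probes lie in was not determined here.

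**Figure D3:**
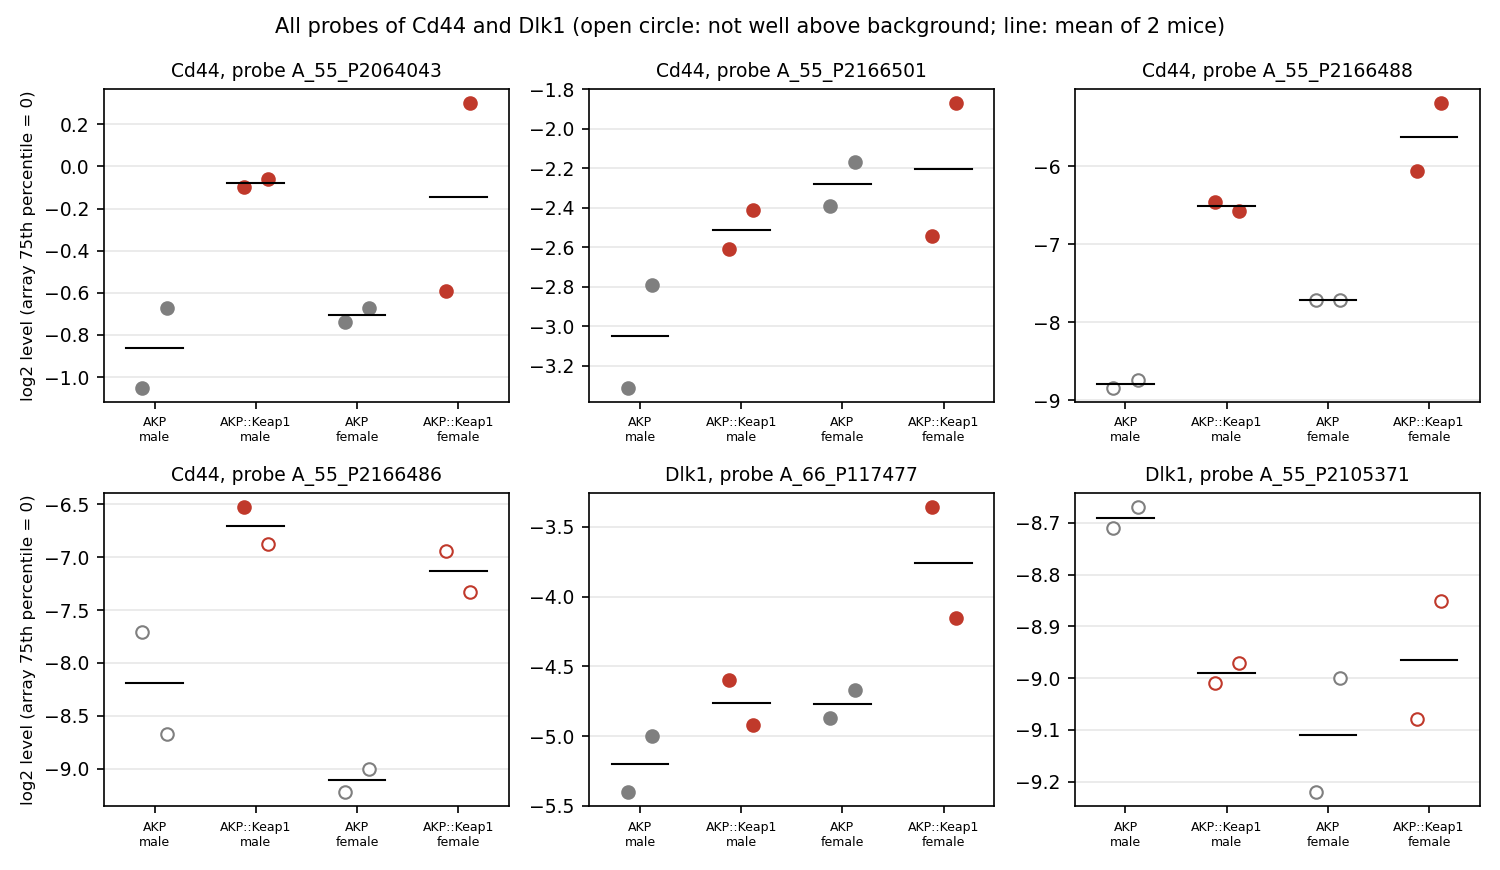
Level of each of the 4 Cd44 and 2 Dlk1 probes on the 8 arrays (log2, array 75th percentile at 0, own axis per panel). Points are mice, grey for AKP and red for AKP::Keap1, lines are means of 2 mice, and open circles are signals not well above background. The brightest Cd44 probe separates the genotypes, the second overlaps in females, and the third is above background in the 4 AKP::Keap1 livers alone.

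Of 19 listed genes that make, cut or bind hyaluronan, or that partner Cd44, 18 were tested, 5 rose and 4 fell, with a median of -0.063. These shares are near those of all genes, 21.8% higher and 17.2% lower. Spp1, or osteopontin, a secreted Cd44 ligand that bile duct cells also make, rose by 3.28 ± 0.40 (adjusted p = 0.0026). Ezr, which links Cd44 to actin, rose by 1.5 ± 0.24 (adjusted p = 0.0054), and Vcan, a hyaluronan-binding proteoglycan, by 0.74 ± 0.13 (adjusted p = 0.0085). Rdx, a relative of Ezr that is abundant in hepatocytes, fell (-0.89 ± 0.13), as did Hyal1, a hyaluronidase (-0.91 ± 0.16). Lyve1, the hyaluronan receptor of sinusoids and lymph vessels, had -0.78 ± 0.23 (adjusted p = 0.040) and lost its call in 11 of 18 alternatives.

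Among 29 other oncofetal and hepatoblast genes, 28 were tested, 16 rose and 2 fell, with a median of 1.12. This list shares genes with others, so the counts are not independent. Sox9 (2.42 ± 0.23) and Epcam (3.41 ± 0.54) are counted again below as cholangiocyte markers and Birc5 (1.72 ± 0.33) as a proliferation marker. Igf2bp2 is also on the insulin-like growth factor list. The shares over all genes were 21.8% higher and 17.2% lower. The stem cell factors Sall4 (1.76 ± 0.13) and Lin28a (1.24 ± 0.09), each with an adjusted p of 0.00079, and the desaturase Scd2 (2.63 ± 0.23, adjusted p = 0.0012) had the smallest adjusted p-values. Lgr5, a marker of hepatocytes around the central vein, had -0.66 ± 0.19 (adjusted p = 0.034) and Igf2bp2, a relative of Igf2bp3, -0.37 ± 0.11 (adjusted p = 0.041), and they lost their calls in 8 and 11 of 18 alternatives. After a shift to the array median 14 of the list were called higher and 4 lower, and with unscaled values 19 higher and none lower.

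Lin28a, which blocks maturation of let-7 microRNAs, rose in males and not detectably in females. It was at -2.13 and -1.96 in AKP males, at 0.28 and 0.29 in AKP::Keap1 males, at -1.96 and -2.08 in AKP females and at -1.79 and -1.96 in AKP::Keap1 females. The 2 AKP::Keap1 males stood apart from the other 6 livers. The difference was 2.33 ± 0.13 in males (adjusted p = 0.00068) and 0.14 ± 0.13 in females (adjusted p = 0.45), and the sexes differed (-2.18 ± 0.18, female minus male, adjusted p = 0.016). This call was lost in 7 of 17 alternatives, without any 1 of the arrays other than AKP::Keap1 male 1 (adjusted p from 0.052 without AKP male 1 to 0.080 without AKP female 2). Sall4, a zinc finger factor of embryonic stem cells, had the same layout: -0.55 and -1.08 in AKP males, 2.20 in both AKP::Keap1 males, -0.89 and -0.92 in AKP females, and -0.41 and -0.39 in AKP::Keap1 females. The Sall4 difference was 3.01 ± 0.18 in males (adjusted p = 0.00087) and 0.51 ± 0.18 in females (adjusted p = 0.095), and the sexes differed (-2.50 ± 0.26, adjusted p = 0.023). This call was lost in 8 of 17 alternatives, among them without any 1 of the arrays other than AKP male 1 (adjusted p from 0.054 without AKP male 2 to 0.094 without AKP female 2). The AKP::Keap1 males shared a slide, from which the difference cannot be told apart. A second Sall4 probe, above background on 2 of 8 arrays, was highest in AKP female 1, at -4.44, and lay at -6.04 and -8.00 in AKP::Keap1 males and between -8.93 and -8.59 in the other 5 livers. With the mean of both probes the difference over both sexes (0.73, adjusted p = 0.28) and the one between the sexes (adjusted p = 0.14) were not called. In the additive model with slide as a random block, which has no interaction term, the Lin28a difference over both sexes was not called (adjusted p = 0.073). The part of the slide in this loss cannot be told apart from that of the missing term.

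**Figure D4:**
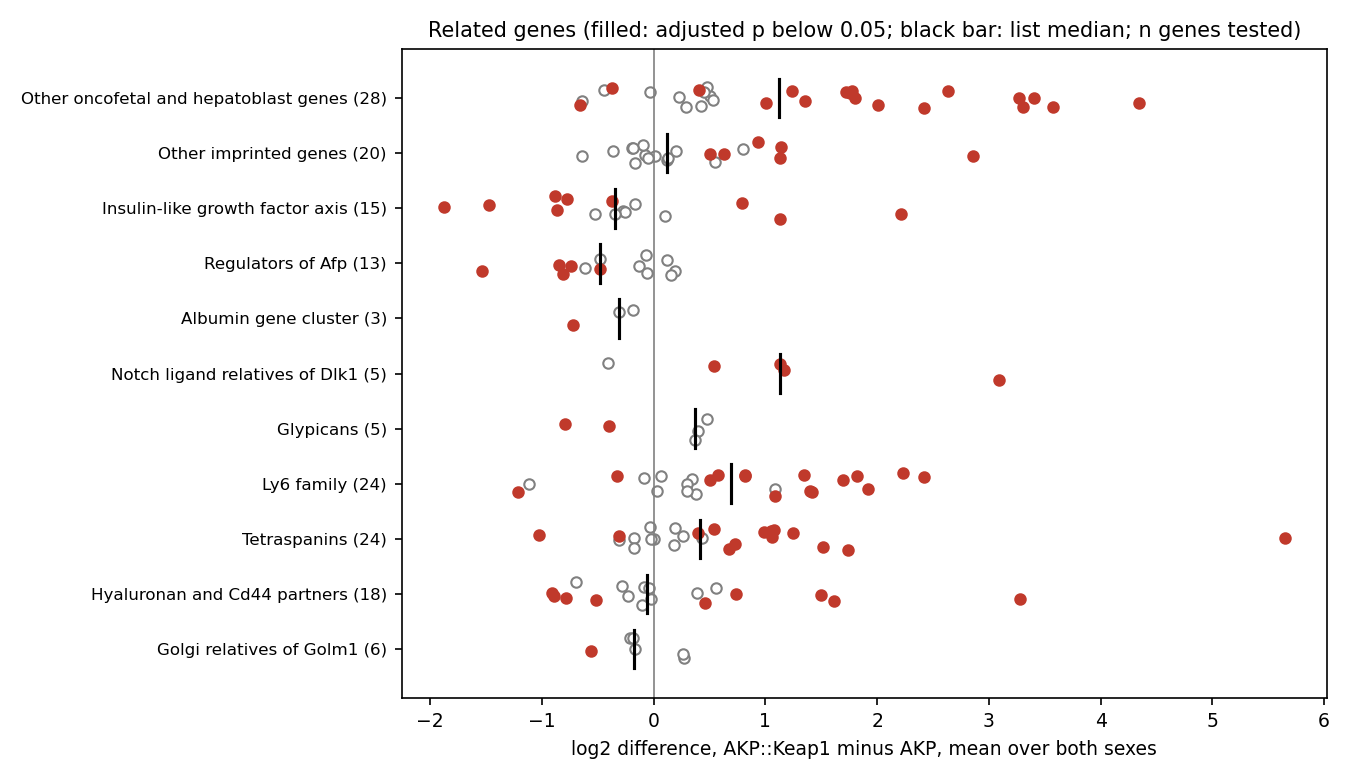
Difference between AKP::Keap1 and AKP livers over both sexes (log2) for genes related to the markers, by list, with the number tested in brackets. Each circle is a gene, filled where the adjusted p is below 0.05, and black bars are list medians. The oncofetal and Notch ligand lists have medians above 1, and the regulators of Afp have a median of -0.48.

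The genotype differences of the markers were compared between the sexes. None of the 7 was called in the test of this interaction (limma), none had an unadjusted p below 0.05, and 1.72% of all genes were called, 0.411% with a larger and 1.31% with a smaller difference in females. The largest estimates were those of Tspan1 (-0.90 ± 0.77, female minus male difference, 95% interval -2.77 to 0.96), Gpc3 (-0.66 ± 0.59, -2.10 to 0.78), Dlk1 (0.57 ± 0.41, -0.44 to 1.57) and Afp (-0.54 ± 0.50, -1.75 to 0.68). These intervals are wide, and a difference between the sexes of the size of the Dlk1 or Gpc3 rise was not detectable. In males 3 of 7 markers were called, all higher, where 28.2% of all genes were called, 16.7% higher and 11.5% lower. Of these markers, Tspan1 was above background in neither AKP male, so its male call is a description. In females 3 of 7 were called, all higher, where 21.4% of all genes were called, 12.3% higher and 9.1% lower. The groups did not overlap for 7 markers in males and 6 in females, beside 34.8% and 36.5% of all genes with both AKP::Keap1 arrays above both AKP arrays.

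Between the sexes themselves, Ly6d was the 1 marker called, while 21.1% of all genes were called, 10.9% higher and 10.3% lower in females. Averaged over the genotypes it was higher in females by 0.98 ± 0.19 (adjusted p = 0.022, 95% interval 0.51 to 1.45). The ranges of the sexes overlapped, because each holds both genotypes. The arrays of the sexes were scanned on different days and slides, so sex and scan day cannot be told apart. The call was lost in 6 alternatives, among them an additive model with slide as a random block (adjusted p = 0.078). The others leave out AKP male 1 (adjusted p = 0.068), AKP male 2 (0.050), AKP::Keap1 male 1 (0.053), AKP female 2 (0.054) or AKP::Keap1 female 2 (0.054). Dlk1 had 0.72 ± 0.21 (adjusted p = 0.055), Tspan1 0.49 ± 0.38, Gpc3 0.35 ± 0.30 and Afp -0.37 ± 0.25, and Golm1 (0.02 ± 0.18) and Cd44 (0.04 ± 0.21) lay near 0.

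Markers of several cell types moved with the genotype, in a comparison where 21.8% of all genes were called higher and 17.2% lower. Of 9 cholangiocyte markers tested, 7 rose and none fell, and their mean level was -3.27 to -2.17 in AKP and -0.10 to 0.59 in AKP::Keap1 livers. All 7 proliferation markers rose, from means of -4.57 to -3.84 to means of -2.74 to -1.26. Neutrophil markers (5 of 6 tested rose, -3.54 to -1.94 against -1.11 to 0.54) and macrophage markers (4 of 7 tested rose, -0.61 to -0.14 against 0.48 to 1.25) were also higher. Hepatocyte markers were bright in every liver, with means of 7.20 to 7.68 in AKP and 6.69 to 7.14 in AKP::Keap1 livers, and 4 of 9 tested fell. In males alone 4 of these 9 fell (median -0.62) and in females 1 (median -0.21), beside 11.5% and 9.1% of all genes. For 0 of the 9 was the difference between the sexes called. Among 7 stellate cell and fibroblast markers 4 rose and 1 fell, and among 6 endothelial markers 4 fell. Erythroid markers of fetal liver haematopoiesis kept close levels (-3.60 to -3.26 against -3.63 to -3.24), with 1 of 7 tested higher and 1 lower, and Hba-x was above background on no array. Of T and NK cell markers 1 of 7 tested rose, of mesothelial markers 1 of 6, and of muscle markers the 1 tested, with Ckm and Myh1 above background on no array. The part of these cell types in the rise of the markers was not tested.

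The genes most like each marker over the 8 arrays are given as a description, among 7724 named genes that ranged over at least 1 log2 unit. The arrays share their groups, so that any gene that separates the genotypes correlates with another. Afp was closest to Mm2pr (r = 0.988), Arhgap44 (0.986) and Osbpl3 (0.986), and Ly6d to the chloride transporter Clcn5 (0.991), the efflux pump Abcc4 (0.990) and the fatty acid receptor Ffar2 (0.989). Tspan1 was closest to Lrrc1 (0.998), Cd101 (0.994) and Oscp1 (0.994), and Golm1 to Capsl (0.997), Flacc1 (0.987) and Rnf208 (0.986). Gpc3 was closest to Grip1 and to the cadherin Cdh3 (0.986 each) and to Zfp185 (0.983). Cd44 was closest to Tnfaip3, an inhibitor of NF-kappaB (0.973), Rap1gap (0.964) and Zscan18 (0.963). Dlk1 was closest to Olfr1509 (0.967), Sh3pxd2a (0.965) and the spindle protein Tpx2 (0.965). Among the markers themselves, Tspan1 with Ly6d and with Golm1 had the highest correlation (0.95 each) and Dlk1 with Cd44 the lowest (0.36).

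**Figure D5:**
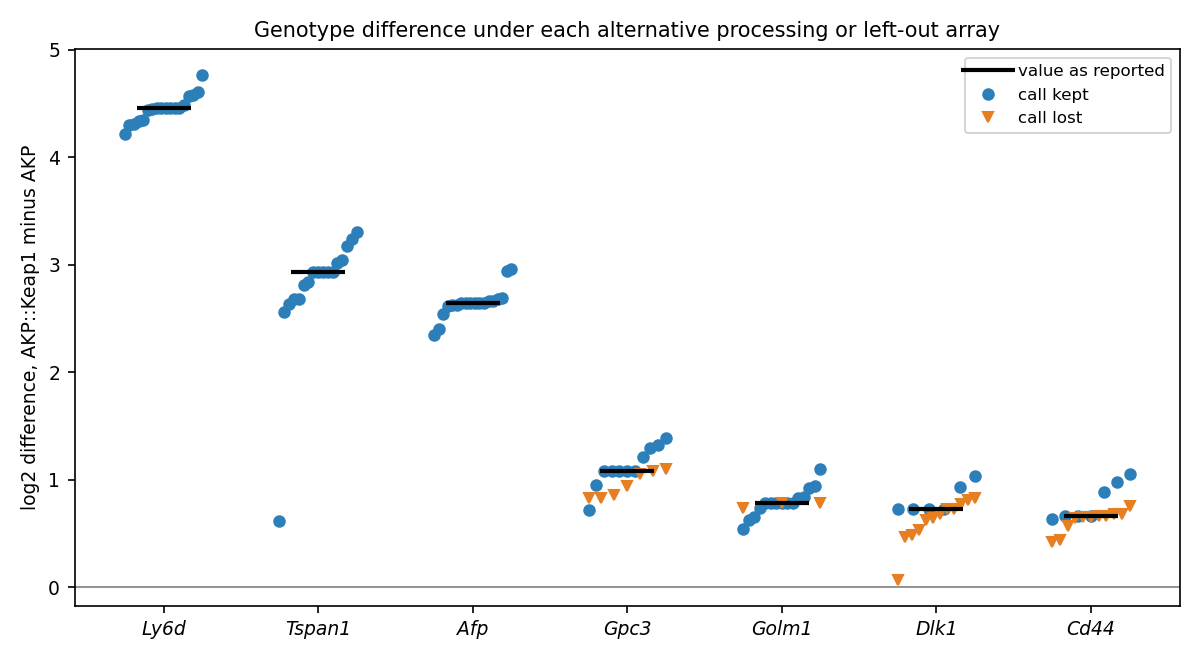
Difference between AKP::Keap1 and AKP livers over both sexes (log2) for the 7 tested markers under each alternative processing or left-out array. Each point is 1 alternative, blue circles where the adjusted p stayed below 0.05 and orange triangles where it did not, and black bars are the values given in the text. Ly6d, Tspan1 and Afp have no triangle, whereas Dlk1 has 12 and Cd44 has 11.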

How the data were processed

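RNA of whole livers from 8 mice was hybridised to 1-colour Agilent mouse arrays, 1 array per mouse, in 4 groups of 2 mice. The authors deposited, for each array, a linear intensity per spot made with Agilent Feature Extraction. The submitters' processing notes give version 10.1, whereas the file headers give 10.7.3.1. The intensity used is the processed signal, after the software's own background subtraction per the file headers. The deposited series matrix holds the same intensity values (355176 of 355176 equal within a relative tolerance of 1e-06), with no scaling between arrays.

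Of 44397 spots per array, 1377 controls and the outlier spots were left out, and log2 signals of 1 probe were averaged. Of 39429 probes, 26055 were named through their accession in a RefSeq table of GRCm38.p6, 13374 stayed unnamed and 103 lacked a value on an array. No probe was assigned several genes. From each log2 signal the array's 75th percentile was subtracted. Probes well above background on fewer than 2 of 8 arrays were dropped, and each gene was represented by its brightest probe on average, for a total of 15834 genes. The tests used limma 3.58.1 under R 4.3.3 (lmFit and eBayes, 1 mean per group over all 8 arrays, two-sided, Benjamini-Hochberg over all genes), a step also tested on simulated data. Adjusted p-values in the text are from this fit. Whether the 2 mice of a group were separately raised is not stated, so p-values measure the spread between these samples.

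All 10 markers are named, and from each list of related genes up to 3 that rose and 3 that fell with the smallest adjusted p, plus further ones where they explain a count. Zhx2, Lin28a and Sall4 were taken further by sex after their values were seen. The markers and lists were chosen with earlier results of these data known. Promoters are the 250 bases before the start in a RefSeq table of GRCm38.p6. The alternatives were other scalings, a normexp background correction (offset 50), other filters and probe rules, a trended robust variance, a fit within each sex, slide or replicate number as a block, and leaving out each array. Wherever slide is named as a random block, the model was additive in genotype and sex, without their interaction, so more than the slide term changed. Replicate numbers did not pair the mice: deviations of same-numbered arrays correlated at -0.16 to 0.12. Some items of this series, the oncogene among them, are not reported here.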

Additional observations from a re-analysis of the deposited data

Results flagged for a closer look

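Among the related genes, Lin28a and Sall4 were singled out because their genotype difference differed between the sexes by a test of the difference itself. The female minus male difference was -2.18 for Lin28a and -2.50 for Sall4. Among the 28 oncofetal and hepatoblast genes tested these were the 2 called. The interaction stayed negative in 17 of 17 alternatives run for each gene, but its call was lost in 7 for Lin28a (adjusted p of up to 0.080) and in 8 for Sall4 (up to 0.14). Of the single arrays left out, AKP::Keap1 male 1 for Lin28a and AKP male 1 for Sall4 were the ones without which the call was kept.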

How the results depend on the processing

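Of the alternatives run, 125 values for the 7 tested markers by genotype over both sexes kept their direction, and 33 of them lost the call, 12 for Dlk1, 11 for Cd44, 7 for Gpc3 and 3 for Golm1. Normexp on mean signals was planned but not run, because no mean signal per spot was available in the data as used here. Normexp on median signals was chosen after seeing the data.

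The number of markers called over both sexes was 7 as reported, 4 after a shift to the array median, 4 with slide as a random block, and 3 to 6 without any 1 array. In males it was 3 as reported, 5 after normexp, 7 with unscaled values, 5 with a trended robust variance, 6 in a fit to the male arrays alone and 2 to 5 without any 1 array. In females it was 3, against 1 in a fit to the female arrays alone and 2 to 4 without any 1 array. Over all genes, 6185 were called over both sexes, against 3310 with slide as a random block, where the correlation within slides was 0.23, and 4132 to 5459 without any 1 array. In males 4464 were called, against 8232 after a shift to the median and 1033 to 4289 without any 1 array. In females 3390 were called, against 1230 in a fit to the female arrays alone and 729 to 2814 without any 1 array. The interaction had 272 calls, against 1189 after a shift to the median, 160 after quantile normalization, 460 with unscaled values, 118 with no filter, 421 with all 8 arrays above background, 541 with a trended robust variance and 0 to 51 without any 1 array. By sex 3348 were called, against 326 with slide as a random block and 1117 to 2196 without any 1 array.

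Values that turned sign, none of them called, were the male difference of Dlk1 after normexp (-0.33), and in the interaction Afp without AKP female 1 (0.053), Ly6d without AKP::Keap1 male 2 (0.041), Tspan1 after normexp (0.37), Golm1 after a shift to the median (0.19), normexp (0.033) or without AKP male 1 (0.035), AKP female 1 (0.26) or AKP::Keap1 female 1 (0.21), and Cd44 after a shift to the median (0.025) or without AKP::Keap1 female 1 (0.23). By sex, Golm1 turned after a shift to the median (-0.081), normexp (-0.043), with unscaled values (-0.18) or without AKP male 1 (-0.030), AKP female 1 (-0.14) or AKP::Keap1 female 2 (-0.12). Cd44 turned after a shift to the median (-0.054), with unscaled values (-0.15) or without AKP male 1 (-0.052) or AKP::Keap1 female 2 (-0.18). Of related genes, Gc turned after quantile normalization (0.075) and with unscaled values (0.12), and Dll3 (-0.093) and Lypd3 (-0.13) after normexp. Zhx2 turned in males with unscaled values (0.25) and Sall4 in females with the mean of its kept probes (-0.84). Without any 1 array the interaction ranged from -1.13 to 0.053 for Afp, -0.55 to 0.041 for Ly6d, -0.37 to 0.26 for Golm1 and -0.66 to 0.23 for Cd44, and the sex difference from -0.14 to 0.17 for Golm1 and -0.18 to 0.27 for Cd44. The cause of these changes was not tested.

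With the replicate block, which also is the position of an array on its slide, 5641 genes were called over both sexes, 3775 in males and 2949 in females, the interaction had 59 calls and sex 2676, and Dlk1 was the 1 marker whose call over both sexes was lost.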
